A study of Mus musculus with 36 samples.

Results

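OT-I cells, mouse CD8 T cells with a receptor for an ovalbumin peptide, that carried a short hairpin RNA (shRNA) against Ppp2r2d were measured on 6 arrays. The labels give 3 of these arrays as tumor and 3 as spleen, out of 36 arrays in the series. The other 30 arrays hold the same 2 tissue labels, with 3 arrays each, for hairpins against Egr2, Ptpn2, Arhgap5 and Alk and for the control hairpin against LacZ, a bacterial gene. The recipient mice all bore tumors of the melanoma line B16, so every group shares the transduction, the transfer and the tumor-bearing host. The labels do not give the hairpin sequence, the number or age of the mice, the time after transfer, or whether the 3 arrays of a group came from separate mice. The p-values below therefore measure the spread between arrays, which may be technical. Members were all 18193 genes that a probe set with 1 gene symbol represents, each by its probe set of highest mean over the 36 arrays.

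The 2 tissue labels go against the pigment genes, and the words labelled tumor and labelled spleen are used for that reason throughout. Dct, Tyrp1 and Mlana, which melanocytes and B16 cells use to make pigment, were near the low end of the scale in the arrays labelled tumor and high in those labelled spleen. Tyrp1 had log2 levels of -2.42, -2.67 and -2.70 in the labelled tumor arrays, against 4.61, 5.07 and 5.20 in the labelled spleen arrays. Every direction below is labelled tumor minus labelled spleen as the labels stand, and would turn round if the labels were exchanged.

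PP2A is a serine and threonine phosphatase built from a scaffold, a catalytic and a regulatory subunit, and the regulatory subunit decides which substrates it reaches. Ppp2r2d encodes the B55 delta regulatory subunit, which is best known from work in frog eggs as a brake on entry into mitosis. Activated CD8 T cells divide, make granzymes and cytokines and carry inhibitory receptors such as PD-1. Resting and memory cells keep factors such as KLF2, which drives the receptors that let T cells recirculate through lymphoid tissue.

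The 6 arrays were of even quality within each label. Their medians ranged from -0.47 to -0.31 (log2, as deposited). Correlations over all genes were 0.991 to 0.994 among the labelled tumor arrays, 0.990 to 0.993 among the labelled spleen arrays and 0.935 to 0.939 between the labels. The Gapdh 3' minus 5' control difference, a measure of RNA integrity, was 0.89, 0.89 and 1.10 in the labelled tumor arrays, against 0.57, 0.48 and 0.63 in the labelled spleen arrays. It moves with the label, and its part in the results was not tested. The values hold no detection calls, so levels far below the array median are near the floor and a difference from them has no firm upper size. In bulk RNA, fewer cells of a type and less RNA per cell cannot be told apart.

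Ppp2r2d itself did not differ beyond the spread between the labels in the cells that carried its hairpin. Its log2 level was 3.83, 4.07 and 4.11 in the labelled tumor arrays, against 3.31, 3.67 and 3.88 in the labelled spleen arrays. The arrays of the 2 labels overlapped. The difference was 0.38 ± 0.42 (SE, limma, adjusted p = 0.67), and its other probe sets gave 0.37 and 0.34 (adjusted p = 0.471 and 0.558, limma over all probe sets). This SE pools the spread of all 12 groups. The adjusted p by limma was 0.152 with only the arrays compared, 0.397 without Ptpn2 labelled tumor array 1 and 0.0881 with array weights. In the labelled spleen arrays the Ppp2r2d transduction lay below all 15 arrays of the other transductions, whose levels ran from 4.31 to 5.51. So did other named genes, among them Tk1, Rgs16 and the PP2A gene Ppp2r5c, and the share over all genes was not counted. The T cell markers Cd8a, Cd8b1 and Thy1 also lay below all 15 others in these arrays, at 6.13 to 6.27, 5.34 to 5.42 and 5.65 to 5.83, while the lowest of the others were 6.40, 5.45 and 5.92. Cd3d, Cd3e and Cd3g lay within the others, and the part of these markers in the Ppp2r2d level was not tested. In the labelled tumor arrays Ppp2r2d lay within the other transductions, which ran from 2.00 to 5.22. The 2.00 was Ptpn2 labelled tumor array 1, which had the lowest best correlation to another array in the series (0.905). The next lowest were 3.83 (Arhgap5) and 3.86 (LacZ), so the Ppp2r2d arrays, at 3.83, 4.07 and 4.11, stood near the low end of the rest. The LacZ control had 4.12, 3.86 and 4.40 in labelled tumor arrays and 5.51, 5.16 and 4.31 in labelled spleen arrays. The Ppp2r2d difference exceeded that of LacZ by 1.25 (adjusted p = 0.556, limma) and the mean of the other 4 hairpins by 0.90 (adjusted p = 0.226, limma), and neither was called.

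**Figure D1:**
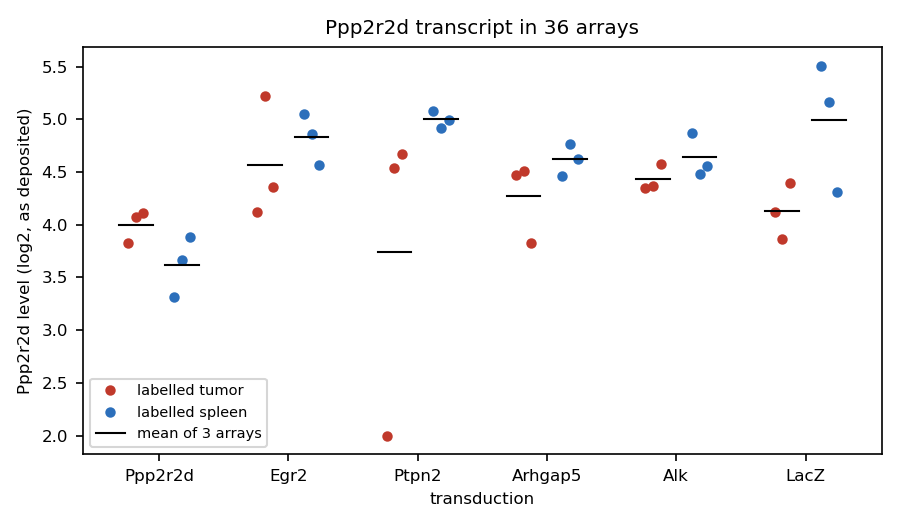
Ppp2r2d level (log2, as deposited) in all 36 arrays, by transduction on the horizontal axis, with labelled tumor arrays left of labelled spleen arrays. Points are arrays and lines are means of 3. The 3 labelled spleen arrays of the Ppp2r2d transduction, at 3.31 to 3.88, lie below every other labelled spleen array.

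Between the labels 4107 of 18193 genes passed the test (22.6%, limma over all 36 arrays, Benjamini-Hochberg adjusted p under 0.05). Of these, 1474 rose (8.1%) and 2633 fell (14.5%) in labelled tumor arrays. A difference of 1 on the log2 scale is a 2-fold change. Of the called genes, 292 rose and 943 fell by at least 2, and 9 rose and 79 fell by at least 5. Quantile normalization called 33.2% of genes and moved the balance: 3083 genes rose (16.9%) and 2965 fell (16.3%), and the median over all genes was 0.07 in place of -0.11. The 3 arrays of each label did not overlap in 8893 genes (48.9%, 19.2% higher and 29.7% lower in labelled tumor arrays). Counts of called list members below are to be read beside the shares over all genes, 8.1% up and 14.5% down. Under quantile normalization those shares were 16.9% and 16.3%.

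Among the other PP2A subunits, the scaffold and catalytic genes had differences near 0. Of 22 measured genes of the complex and its regulators, 4 fell, against 14.5% of all genes, and the median was -0.07 against -0.11 over all genes. No member rose by limma, and 2 were higher at an unadjusted p under 0.05. The catalytic genes Ppp2ca and Ppp2cb had differences of 0.09 and 0.19, and the main scaffold gene Ppp2r1a had -0.20. Ppp2r2a, which encodes the B55 alpha subunit, had 0.50. None of these 4 was called by limma (adjusted p = 0.914, 0.764, 0.763 and 0.271). The 4 that fell were Ppp2r3a, Ppp2r2c, Cip2a and Ptpa.

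Cip2a, an inhibitor of PP2A, had log2 levels of 3.25, 3.30 and 3.47 in labelled tumor arrays, against 4.93, 5.16 and 5.26 in labelled spleen arrays (difference -1.77 ± 0.49 SE, adjusted p = 0.0064, limma). Ppp2r3a, which encodes a regulatory subunit of the B'' family, had -2.42, -3.06 and -2.97 in labelled tumor arrays, against 0.62, 0.98 and 0.36 in labelled spleen arrays (-3.47 ± 0.45 SE, adjusted p = 2.93e-07, limma). Neither gene's arrays overlapped, which held for 48.9% of all genes. Ppp2r2c, the B55 gamma gene, differed by -1.72, and by -0.90 when its probe sets were averaged, which was not called (adjusted p = 0.111, limma). Ptpa, the PP2A activator, differed by -0.84, and its call was lost when any 1 of the 6 arrays was left out (highest adjusted p = 0.13, limma). Under quantile normalization 4 genes of the list rose and 6 fell.

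T cell identity genes differed little between the labels. Of 15 measured genes of the receptor complex and its co-receptors, 1 rose, with a median difference of 0.30. Cd3e had 6.56, 6.33 and 6.47 in labelled tumor arrays, against 6.71, 6.58 and 6.71 in labelled spleen arrays (adjusted p = 0.877, limma). Cd8a differed by 0.22, Cd3d by 0.01, Cd3g by -0.16 and Thy1 by 0.43, and none of these 4 was called. Cd8b1, the CD8 beta chain, rose by 0.88 (adjusted p = 0.0138, limma), a call that was lost without labelled tumor array 1 (adjusted p = 0.0603). All 6 defining CD8 T cell markers lay above the array median in every array of both labels. Under quantile normalization 6 of the 15 rose and 1 fell.

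Markers of other cells moved with the labels, and their part in the results below was not tested. Of 16 melanocyte and B16 genes 12 fell, with a median of -2.82, and of 20 macrophage genes 17 fell, with a median of -3.54. C1qb, a subunit of complement C1q made by macrophages, had -3.29, -2.46 and -3.42 in labelled tumor arrays, against 4.25, 3.76 and 4.69 in labelled spleen arrays. The 8 defining macrophage markers, Csf1r, C1qa, C1qb, C1qc, Lyz2, Cd68, Adgre1 and Fcgr1, all fell, and 7 of them lay below the array median in every labelled tumor array. Their summed level was 1.83 to 2.05 in labelled tumor arrays and 5.72 to 6.45 in labelled spleen arrays on the log2 scale. For the 6 defining pigment genes, Dct, Tyrp1, Tyr, Mlana, Pmel and Slc45a2, the summed level was 3.07 to 3.32 in labelled tumor arrays and 6.30 to 6.94 in labelled spleen arrays. Of these Pmel alone was not called (-0.80).

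Other marker lists moved less. Of 11 genes of dendritic cells and MHC class II, 5 fell, among them H2-Aa (-6.52), an MHC class II chain. The dendritic cell markers Flt3 and Xcr1 were not called (-1.18 and -0.44) and Zbtb46 fell by 2.15. Of 15 genes of stroma and endothelium 4 fell, among them Sparc (-5.08), Col1a1 (-2.11) and Col3a1 (-2.50), while Col1a2, Pecam1, Cdh5 and Kdr were not called (-0.96, 0.06, -0.49 and -0.08). Col1a1 lost its call under quantile normalization (-1.50, adjusted p = 0.0709, limma). Of 11 neutrophil genes 0 passed the test by limma, and 0 had an unadjusted p under 0.05. S100a8, S100a9, Ngp, Camp and Csf3r had differences of -1.49, -0.84, 0.13, -0.27 and -0.59. Cd4 and Foxp3, of CD4 and regulatory T cells, differed by -0.98 and -0.29, the NK cell gene Ncr1 by -0.33, and the erythroid genes Hba-a1, Alas2 and Slc4a1 by -0.11, 0.44 and 2.93, none of them called. Other members of their lists were called. In the list of CD4, regulatory and NK cell markers 2 of 8 rose and 2 fell (-3.12 to 1.54). Among erythroid and platelet markers 3 of 12 rose and 2 fell (-5 to 3.49). Over all genes 8.1% rose and 14.5% fell.

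Genes of B cells were mixed. Of 11 B cell markers 3 rose, 1 fell and 7 were not called, with a median of 0.10. Of all genes 8.1% rose and 14.5% fell. Cd79b, the B cell receptor's beta signalling chain, had 2.06, 1.90 and 1.98 in labelled tumor arrays, against -0.22, -0.29 and 0.57 in labelled spleen arrays. Ighm, the IgM heavy chain, rose by 1.39 (adjusted p = 0.000826, limma), while Cd79a, Ms4a1 and Pax5 were not called (0.78, 0.10 and 0.06). The summed level of the 4 measured defining B cell markers was 2.20 to 2.29 in labelled tumor arrays and 0.29 to 1.03 in labelled spleen arrays, and Ms4a1, Cd79a and Pax5 lay below the array median in all 6 arrays.

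**Figure D2:**
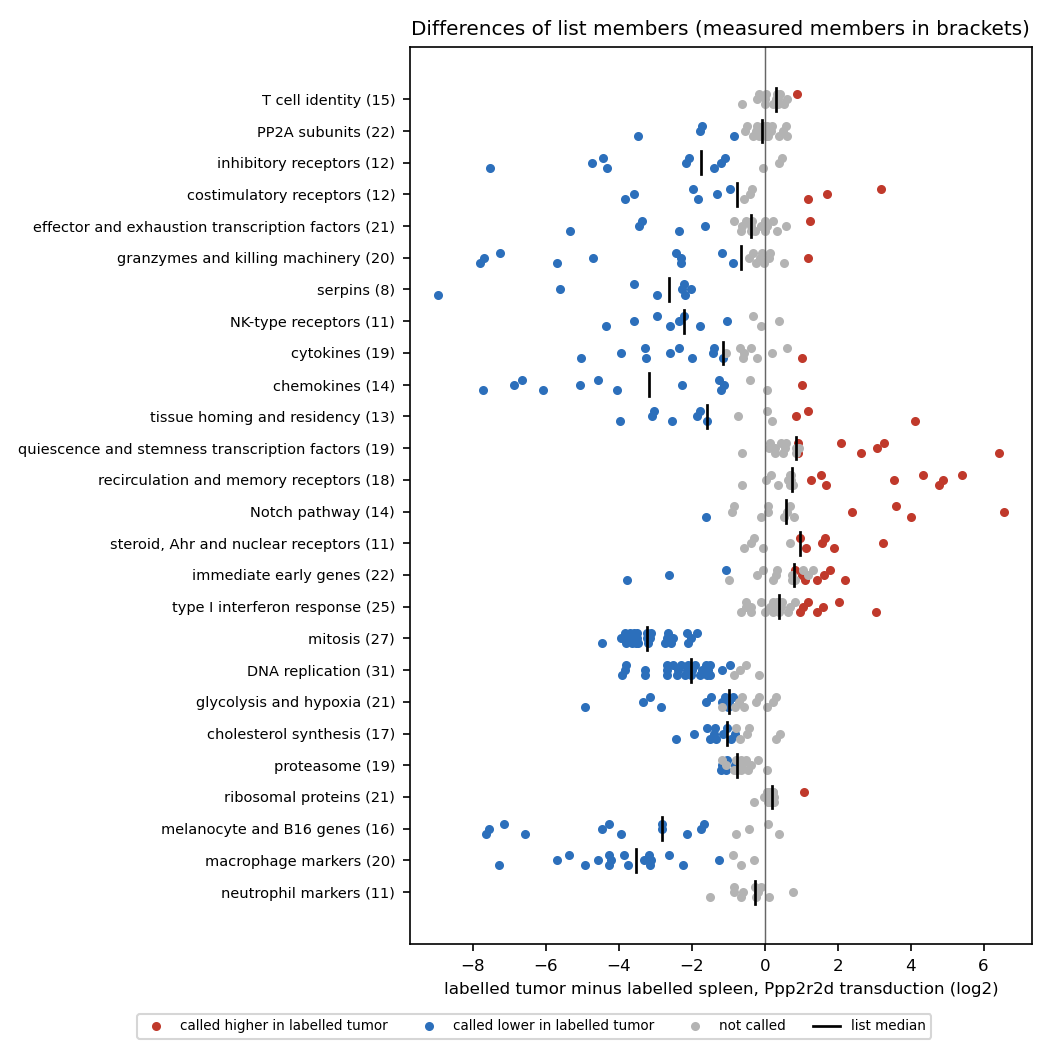
Difference of each measured gene between labelled tumor and labelled spleen arrays of the Ppp2r2d transduction (log2, horizontal axis), in 26 gene lists down the page. Points are genes, coloured by whether limma called them higher or lower in labelled tumor arrays, and the line is the list median. All 27 mitosis genes lie left of 0, and 18 of 19 quiescence factors lie right of it.

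Granzymes and perforin fell. Of 20 genes of the killing machinery 10 fell and 1 rose, with a median of -0.66. Gzmc, a granzyme induced late in activation, had -1.63, -1.66 and -1.47 in labelled tumor arrays, against 6.49, 5.93 and 6.24 in labelled spleen arrays, the second largest fall of all genes. Gzme, Gzmd, Gzmf and Gzmg fell by 7.69, 7.26, 5.68 and 4.70. These granzymes are close copies of each other, and probes may not keep them apart.

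Gzmb, the main granzyme of killer T cells, was high under both labels, at 4.47, 4.66 and 4.65 in labelled tumor arrays, against 6.99, 6.75 and 6.91 in labelled spleen arrays (-2.29 ± 0.31 SE, adjusted p = 6.96e-07, limma). Prf1, perforin, fell by 2.30, though the mean of its probe sets fell by 0.82 (adjusted p = 0.0312, limma). Gzma, Nkg7 and Fasl were not called (-0.44, -0.25 and -0.01). Gzmm was the granzyme that rose, at 4.52, 4.44 and 4.29 in labelled tumor arrays, against 3.19, 3.13 and 3.38 in labelled spleen arrays.

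All 8 measured serpins fell, with a median of -2.61. Serpinb9b, a clade B serine protease inhibitor, had the largest fall of all genes: -2.69, -2.41 and -2.49 in labelled tumor arrays, against 6.49, 6.28 and 6.49 in labelled spleen arrays (-8.95 ± 0.39 SE, adjusted p = 2.71e-17, limma). Serpinb9, the inhibitor of granzyme B that protects killer cells from their own granules, fell by 2.26, Serpinb6b by 2.22 and Serpinb6a by 2.96. Serpinf1, Serpinh1, Serpinb1a and Serpinc1 fell by 5.60, 3.57, 2.18 and 2.03. Serpinf1 and Serpinh1 are also made by stroma. Of the 15 genes of stroma and endothelium given above 4 fell and 11 were not called.

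NK-type receptors fell in 8 of 11 measured genes, with a median of -2.21. Klrk1, the NKG2D receptor, had 3.94, 3.84 and 3.70 in labelled tumor arrays, against 6.48, 6.38 and 6.38 in labelled spleen arrays. Klra5, Klre1 and Klrc1 fell by 4.35, 3.59 and 1.78. Klrd1, the CD94 partner chain of the NKG2 family, was not called (-0.11, adjusted p = 0.895, limma).

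Of 19 cytokine genes 10 fell and 1 rose, and of 14 chemokines 11 fell and 1 rose, with medians of -1.15 and -3.16. Of all genes 14.5% fell and 8.1% rose. Ifng, the interferon gamma gene, had 5.24, 5.14 and 5.25 in labelled tumor arrays, against 6.49, 6.17 and 6.42 in labelled spleen arrays (-1.15 ± 0.25 SE, adjusted p = 0.000829, limma). Il3, Csf2, Lif, Il10 and Il2 fell by 5.04, 3.93, 3.25, 2.59 and 2.36. Tnf was not called (0.60), and Ltb, lymphotoxin beta, rose by 1.01, a call lost when any 1 of the 6 arrays was left out (highest adjusted p = 0.14, limma). Ccl1, the CCR8 ligand, had -2.96, -2.82 and -3.29 in labelled tumor arrays, against 4.69, 4.49 and 4.95 in labelled spleen arrays.

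Xcl1, the ligand that draws cross-presenting dendritic cells, had 5.61, 5.73 and 5.55 in labelled tumor arrays, against 6.97, 6.72 and 6.81 in labelled spleen arrays. Ccl3 fell by 1.12, a call lost without labelled spleen array 1 or labelled tumor array 2 (highest adjusted p = 0.0625, limma), and Ccl4 was not called (-0.40). Ccl5 was the chemokine that rose, at 7.05, 6.71 and 6.85 in labelled tumor arrays, against 5.73, 5.82 and 5.97 in labelled spleen arrays. Ccl9, Cxcl2, Ccl8 and Cxcl9, which macrophages also make, fell by 6.87, 6.64, 6.07 and 5.05. The macrophage markers given above fell with them.

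Inhibitory receptors fell in 9 of 12 measured genes, with a median of -1.74. Pdcd1, which encodes PD-1, had -1.21, -0.94 and -1.17 in labelled tumor arrays, against 6.33, 6.55 and 6.38 in labelled spleen arrays (-7.53 ± 0.30 SE, adjusted p = 6.75e-18, limma). Havcr2, the TIM-3 gene, had -1.41, -0.78 and -0.47 in labelled tumor arrays, against 3.90, 3.78 and 3.85 in labelled spleen arrays, and Lag3 had 0.74, 0.61 and 0.72, against 5.09, 5.11 and 5.11. No arrays of these 3 genes overlapped between the labels, which held for 48.9% of all genes. Cd244a, Klrg1, Entpd1 and Cd160 fell by 4.32, 2.15, 2.07 and 1.40. Ctla4, Btla and Cd96 were not called: Ctla4 had 6.52, 6.19 and 6.26 in labelled tumor arrays and 6.40, 6.41 and 6.34 in labelled spleen arrays (-0.06, adjusted p = 0.96, limma).

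Costimulatory receptors split, with 6 of 12 falling and 3 rising. Tnfrsf4 (OX40) and Tnfrsf9 (4-1BB), which activation brings to the surface, fell by 3.84 and 3.57. Cd226, which binds the same ligands as the inhibitory receptor TIGIT, had 0.21, 0.39 and 0.35 in labelled tumor arrays, against -2.39, -3.30 and -2.88 in labelled spleen arrays.

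Of 21 effector and exhaustion transcription factors 5 fell and 1 rose, against 14.5% and 8.1% of all genes. The median was -0.37, and 8 fell and 2 rose under quantile normalization. Tox, a factor of exhausted cells, had 3.89, 3.81 and 3.99 in labelled tumor arrays, against 5.48, 5.42 and 5.68 in labelled spleen arrays. Prdm1 (BLIMP-1), Irf8, Ikzf2 (Helios) and Zeb2 fell by 2.35, 3.44, 3.36 and 5.34. Eomes, a T-box factor of memory and effector cells, rose by 1.23 (adjusted p = 0.00053, limma). Tbx21 (T-bet), its sister gene, was not called (-0.10), nor was Nr4a1 (0.57).

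Factors of resting and stem-like T cells moved the opposite way. Of 19 measured genes 7 rose, with a median of 0.87 against -0.11 over all genes. Klf3, a repressor of the Krüppel-like family, had 4.73, 4.90 and 5.06 in labelled tumor arrays, against -1.88, -1.14 and -1.52 in labelled spleen arrays (6.41 ± 0.33 SE, adjusted p = 1.27e-15, limma). Klf2, which drives S1pr1 and L-selectin, had 6.13, 5.94 and 5.97 in labelled tumor arrays, against 3.24, 3.42 and 3.45 in labelled spleen arrays. The clock repressors Nr1d1 and Nr1d2 rose by 2.08 and 3.07, and Pou6f1 by 3.28.

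Klf13 rose by 0.90 and Btg2, which slows division, by 0.91. Klf13 lost its call without labelled tumor array 1 (adjusted p = 0.0679, limma) and Btg2 without any of 4 arrays (highest adjusted p = 0.118, limma). Foxo1, Bach2 and Lef1 were not called (0.87, 0.29 and 0.12). Under quantile normalization 15 of the 19 rose.

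Receptors of recirculating and memory cells rose in 8 of 18 measured genes, with a median of 0.75. S1pr1, the receptor by which T cells leave lymphoid tissue, had 4.24, 4.05 and 4.41 in labelled tumor arrays, against -0.17, 0.46 and -0.64 in labelled spleen arrays (4.35 ± 0.49 SE, adjusted p = 1.91e-08, limma). Il7r, the survival receptor of naive and memory cells, had 6.14, 6.19 and 6.23 in labelled tumor arrays, against 4.07, 4.89 and 4.61 in labelled spleen arrays. Il6ra, Aqp9 and Treml2 rose by 4.89, 5.42 and 4.78. Aqp9 is a glycerol channel that memory CD8 T cells use. Itgb7 and Ifngr2 rose by 1.53 and 3.55. Il6st rose by 1.27, a call lost without any of 5 arrays (highest adjusted p = 0.0938, limma). Ccr7 was high under both labels and was not called (0.16, adjusted p = 0.851, limma).

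Receptors of tissue homing and residency split, with 7 of 13 falling and 3 rising. Ccr8, Cxcr6, Itga1 (CD49a) and Itgb8 fell by 3.97, 3.09, 1.77 and 3.03. Itgae, the CD103 chain that binds epithelial E-cadherin, had 3.54, 3.51 and 3.58 in labelled tumor arrays, against -0.82, -0.68 and -0.26 in labelled spleen arrays. Cd69, which opposes S1PR1 at the surface, rose by 0.86 (adjusted p = 0.0476, limma), a call that was lost when any 1 of the 6 arrays was left out (highest adjusted p = 0.146).

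The Notch target Dtx1 had the second largest rise of all genes. It had 3.85, 3.91 and 4.08 in labelled tumor arrays, against -2.29, -2.96 and -2.54 in labelled spleen arrays (6.55 ± 0.47 SE, adjusted p = 2.29e-12, limma). Of 14 measured Notch genes 4 rose and 1 fell, against 8.1% and 14.5% of all genes, with a median of 0.57. The targets Nrarp and Hey1 and the coactivator Maml2 rose by 4.01, 3.61 and 2.38. Rbpj, the DNA-binding partner of Notch, fell by 1.60, and Notch1 was not called (0.68, adjusted p = 0.0583, limma). Under quantile normalization 8 rose and 2 fell.

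Of 11 steroid, Ahr and nuclear receptor genes 6 rose, with a median of 0.97. Rxra, the shared partner of many nuclear receptors, had 2.17, 2.13 and 2.05 in labelled tumor arrays, against -1.01, -1.34 and -1.04 in labelled spleen arrays, and the mean of its probe sets rose by 1.27. Tsc22d3 (GILZ) and Per1, which glucocorticoids induce, rose by 1.89 and 1.66, and Nr3c1, the glucocorticoid receptor, by 0.97. The mean of the Tsc22d3 probe sets was not called (0.75, adjusted p = 0.0556, limma). Rarg rose by 1.57 and Ahr by 1.13, and the Ahr call was lost when any 1 of the 6 arrays was left out (highest adjusted p = 0.0842, limma).

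**Figure D3:**
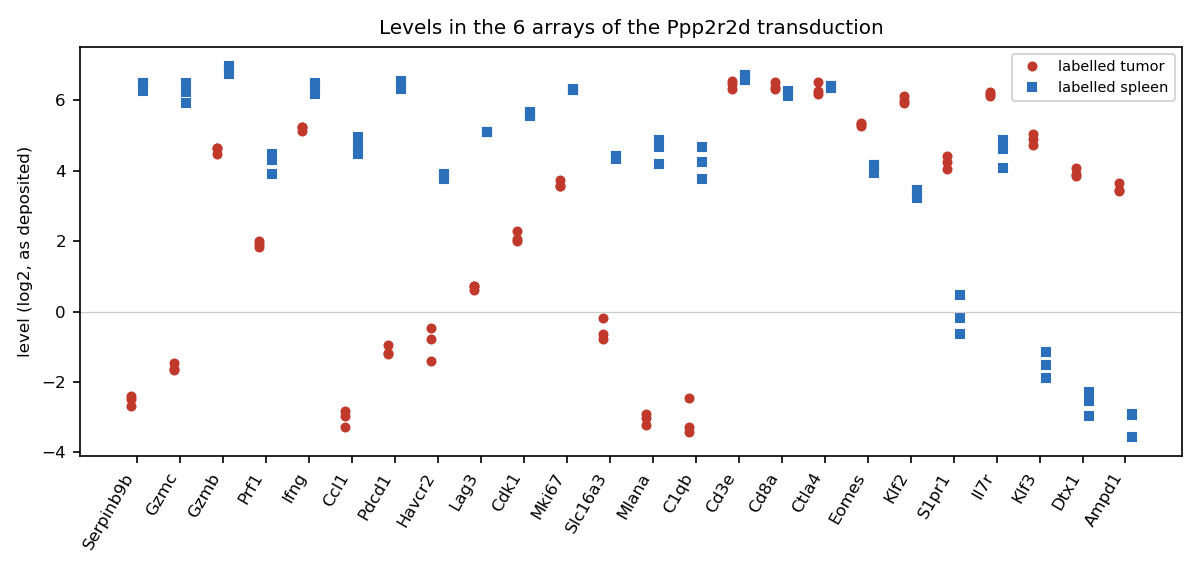
Log2 level as deposited of 24 genes (vertical axis) in the 6 arrays of the Ppp2r2d transduction. Genes run along the horizontal axis, and each gene's labelled tumor arrays (circles) are drawn left of its labelled spleen arrays (squares). Serpinb9b, Gzmc and Pdcd1 lie near or below -1 in labelled tumor arrays and above 5 in labelled spleen arrays, while Klf3, Dtx1 and Ampd1 lie above 3 in labelled tumor arrays and below 0 in labelled spleen arrays. Cd3e, Cd8a and Ctla4 differ little.

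Genes of cell division fell as a block. All 27 measured mitosis genes fell, by 1.86 to 4.47, with a median of -3.22. The arrays did not overlap in any of them, while 48.9% of all genes had no overlap. Of 31 DNA replication genes 27 fell, with a median of -2.01. The promoters of 4 genes of these lists are printed as examples, each chosen because its window holds a sequence that was searched for. Cenpf (a kinetochore protein), Ccnb2 (cyclin B2) and Kif11 (a spindle motor) stand for mitosis, and Pola1 (DNA polymerase alpha) for replication. Each is 250 bases before to 50 after the start, 5′ to 3′ on the gene's strand, from RefSeq on GRCm38.p6: Cenpf chr1:189688037-189688336 (minus strand), Ccnb2 chr9:70421505-70421804 (minus), Kif11 chr19:37376132-37376431 (plus) and Pola1 chrX:93632106-93632405 (minus). Capitals mark TTTGAA or TTCAAA, the letters of the cell cycle homology region (CHR) bound by the MuvB complex, CCAAT or ATTGG, bound by NF-Y, and, in Pola1, GCGCCAAA, an E2F site.
Cenpf: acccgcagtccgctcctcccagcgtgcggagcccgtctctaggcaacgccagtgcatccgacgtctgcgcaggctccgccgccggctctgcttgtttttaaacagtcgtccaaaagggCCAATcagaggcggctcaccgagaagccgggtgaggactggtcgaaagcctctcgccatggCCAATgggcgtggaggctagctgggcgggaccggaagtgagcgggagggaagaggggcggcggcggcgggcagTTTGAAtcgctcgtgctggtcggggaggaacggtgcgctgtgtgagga
Ccnb2: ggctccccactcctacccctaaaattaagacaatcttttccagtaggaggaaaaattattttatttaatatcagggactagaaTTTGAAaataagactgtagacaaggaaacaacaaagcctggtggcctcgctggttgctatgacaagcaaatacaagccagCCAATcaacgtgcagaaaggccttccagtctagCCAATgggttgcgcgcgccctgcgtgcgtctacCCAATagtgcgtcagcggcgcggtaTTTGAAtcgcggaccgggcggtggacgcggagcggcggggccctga
Kif11: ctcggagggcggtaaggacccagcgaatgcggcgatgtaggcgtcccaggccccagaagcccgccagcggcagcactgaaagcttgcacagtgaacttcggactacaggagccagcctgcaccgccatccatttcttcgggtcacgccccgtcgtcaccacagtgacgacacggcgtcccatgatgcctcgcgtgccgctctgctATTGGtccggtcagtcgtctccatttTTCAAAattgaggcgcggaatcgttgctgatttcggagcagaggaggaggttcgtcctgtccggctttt
Pola1: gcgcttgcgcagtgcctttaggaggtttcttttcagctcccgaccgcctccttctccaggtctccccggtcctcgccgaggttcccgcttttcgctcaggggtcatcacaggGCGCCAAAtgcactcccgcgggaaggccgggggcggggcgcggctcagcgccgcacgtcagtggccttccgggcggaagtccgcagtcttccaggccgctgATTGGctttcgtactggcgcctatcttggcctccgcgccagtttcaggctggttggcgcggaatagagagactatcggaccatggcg
Cenpf, Ccnb2 and Kif11 were picked for the CHR letters and Pola1 for the E2F letters. These windows therefore hold those letters by choice and do not show how common they are. Nuf2 and Aurkb fell more than the mitosis genes shown, and Cdc45, Cdc6 and Mcm10 more than Pola1. The windows of Cenpf, Ccnb2, Kif11 and Pola1 also hold CCAAT or ATTGG, which was not part of the choice.

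Promoter windows were found for 23 of the 27 mitosis genes, 24 windows in all, and for 26 of the 31 replication genes, 32 windows. TTTGAA, searched on both strands, was in 18 mitosis windows (75.0%) and in 4 replication windows (12.5%), against 17.9% of all 32851 windows of the same length. CCAAT was in 75.0% of mitosis and 56.2% of replication windows, against 37.4% of all windows. TTTGGCGC, the E2F letters on the other strand, was in 6 replication windows (18.8%) and in 0 of the 24 mitosis windows, against 0.514% of all windows. The motifs share some letters, but none contains another. A match describes the sequence and not a bound site.

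Cdk1, the kinase that starts mitosis, had 2.30, 2.07 and 2.00 in labelled tumor arrays, against 5.61, 5.56 and 5.67 in labelled spleen arrays (-3.49 ± 0.33 SE, adjusted p = 5.5e-10, limma). Mki67, the proliferation marker Ki-67, had 3.58, 3.56 and 3.74 in labelled tumor arrays, against 6.32, 6.29 and 6.31 in labelled spleen arrays. Nuf2, of the kinetochore, had the largest fall of the list (-4.47) and Aurka, a spindle kinase, the smallest (-1.86). Cenpf, Ccnb2 and Kif11 fell by 3.82, 3.81 and 3.71, and Aurkb by 3.93.

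Cdc45, Cdc6 and Mcm10, which load and start the replication helicase, fell by 3.91, 3.84 and 3.79, Tk1, thymidine kinase, by 3.29 and Pola1 by 2.67. Pcna and Cdt1 were not called (-0.50 and -0.17). Of 19 cell cycle inhibitors and p53 targets 7 fell and 2 rose. E2f7, a repressor made in S phase, fell by 4.37 and Cdkn1a (p21) by 1.52, while Sesn1 and Bbc3 (PUMA) rose by 1.80 and 1.50. The lowest adjusted p of any mitosis gene was 0.385 against LacZ and 0.136 against the mean of the other 4 hairpins (limma), where 0.786% and 3.08% of all genes were called. For replication genes it was 0.399 and 0.144 (limma). The list medians in LacZ and in the other 4 were -3.19 and -3.47 for mitosis and -2.32 and -2.03 for replication.

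Metabolic genes fell in part. Of 21 glycolysis and hypoxia genes 11 fell, with a median of -0.98. Slc16a3, the lactate exporter MCT4, had -0.18, -0.64 and -0.79 in labelled tumor arrays, against 4.33, 4.42 and 4.41 in labelled spleen arrays. Bnip3 and Tpi1 fell by 3.33 and 2.83, and the glucose transporter Slc2a1 was not called (0.05). Of 17 cholesterol genes 11 fell, with a median of -1.02, among them Idi1 (-2.42) and Msmo1 (-1.94). Of 26 amino acid and one-carbon genes 12 fell and 3 rose, and the 12 became 7 without labelled spleen array 1 or labelled tumor array 2. Asns, asparagine synthetase, fell by 3.24 and Mthfd2, the mitochondrial folate enzyme, by 1.68.

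Housekeeping lists differed less and depended more on the setting. Of 25 respiratory chain and citrate cycle genes 6 fell, 13 under quantile normalization and 2 to 3 when single arrays were left out. Cycs, cytochrome c, fell by 1.15. Of 19 proteasome genes 5 fell, 14 under quantile normalization and as few as 2 with single arrays left out, with Psmd1 at -1.20. Of 21 ribosomal protein genes 1 rose, Rps27 (1.09), which lost its call without labelled spleen array 1 or labelled tumor array 1 (highest adjusted p = 0.0861, limma). Of 18 genes of folding in the endoplasmic reticulum 5 fell and 1 rose, Dnajb9 (2.13), against 14.5% and 8.1% of all genes. In the BCL2 family list of 15 genes 1 fell and 1 rose, against 14.5% and 8.1% of all genes. Bcl2l1 (BCL-XL) fell by 0.96 and Birc2 rose by 0.92. Both lost their calls with single arrays left out (highest adjusted p = 0.107 and 0.0608, limma).

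Signalling genes split by kind. Il2ra, the high-affinity IL-2 receptor chain, had 0.70, 1.46 and 1.54 in labelled tumor arrays, against 4.49, 4.84 and 4.67 in labelled spleen arrays. Socs3, which cytokines induce to brake their own signal, rose by 2.85. In their list of 16 IL-2 receptor and STAT5 target genes 3 rose and 1 fell, against 8.1% and 14.5% of all genes, with a median of 0.38. Of 22 immediate early genes 7 rose and 3 fell, 13 and 3 under quantile normalization. The AP-1 genes Fosb, Junb, Jun and Fos rose by 1.78, 1.62, 1.43 and 1.01, and Ier2 by 2.20. Ier3 fell by 3.77 and Egr3, which T cell receptor signals induce, by 1.06, a call lost without any of 5 arrays (highest adjusted p = 0.205, limma). Of 14 genes that brake MAP kinase 6 fell and 4 rose: Dusp14, Spry2 and Spry1 fell by 5.33, 3.67 and 3.54, and Dusp10 and Rasa3 rose by 1.82 and 1.97.

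Of 9 RGS genes, which switch off G proteins, 2 rose and 2 fell, against 8.1% and 14.5% of all genes, with a median of -0.09. The 2 that fell were Rgs8 and Rgs16, by 5.11 and 4.69. Nrgn, neurogranin, a calmodulin-binding protein, had -1.48, -0.72 and -1.88 in labelled tumor arrays, against 5.66, 5.67 and 5.78 in labelled spleen arrays. In the list of 16 anergy and diacylglycerol kinase genes 4 fell and 1 rose, with a median of -0.08. The anergy ligase Rnf128 (GRAIL) fell by 2.44, and Dgka, diacylglycerol kinase alpha, which dampens receptor signals, rose by 1.29.

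Type I interferon response genes rose in 7 of 25 measured genes, with a median of 0.40. Oas2, an antiviral synthetase, had 3.55, 2.97 and 3.06 in labelled tumor arrays, against 0.08, -0.15 and 0.50 in labelled spleen arrays. Mx2, Ifit3, Oasl2, Ifit1 and Mx1 rose by 2.04, 1.59, 1.42, 1.04 and 0.98, and Rsad2 was not called (0.23). Without labelled spleen array 1 or labelled tumor array 1, 4 of the 25 rose, and under quantile normalization 14. Of 19 interferon gamma and MHC class I genes 1 rose and 2 fell, against 8.1% and 14.5% of all genes. The one that rose was Irf1, by 1.63.

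The remaining genes with the largest differences have varied roles. Ampd1, AMP deaminase 1, had the largest rise, with 3.42, 3.46 and 3.66 in labelled tumor arrays, against -2.92, -3.57 and -2.94 in labelled spleen arrays (6.65 ± 0.35 SE, adjusted p = 1.6e-15, limma). Rap1gap2, a brake on the adhesion switch RAP1, Pde2a, a cyclic nucleotide phosphodiesterase, Tmem108 and the homeobox gene Cphx3 rose by 4.80, 4.69, 4.36 and 4.55. Tmem86b rose by 5.52, but the mean of its probe sets rose by 1.50. The antibody genes Jchain, Igk and Igkv8-30 rose by 5.93, 5.17 and 5.12, with labelled tumor levels of 2.61, 3.32 and 3.08 for Jchain, 4.69, 5.65 and 5.34 for Igk and 4.42, 5.49 and 5.25 for Igkv8-30. The mean of the Igk probe sets rose by 1.81. Of the 11 B cell markers given above 3 rose, 1 fell and 7 were not called.

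Mamdc2, a MAM-domain protein, had -3.52, -3.29 and -3.17 in labelled tumor arrays, against 4.35, 4.29 and 4.75 in labelled spleen arrays, and Slc17a6, a vesicular glutamate transporter, had -3.36, -3.29 and -3.82, against 3.98, 3.73 and 4.44. Their differences were -7.79 and -7.54. Mlana, Dct and the lysozyme gene Lyz1 differed by -7.63, -7.14 and -7.61, beside the melanocyte and macrophage markers given above. Whether the Lyz1 probe set also reads Lyz2, which is counted among the macrophage markers, was not tested.

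Among called genes of the highest mean level, changes were small. Ldha, lactate dehydrogenase A, fell by 1.00, Pgk1 by 0.98, Stmn1, stathmin, by 1.26 and Ddit4, an mTOR brake, by 1.23. Tnfaip3 (A20), an NF-kappa B inhibitor, rose by 1.06 and Fos by 1.01 at the same end of the scale. Kbtbd11, Srsf5, Ccnl1, Zfp36l2, Zfand5, Pnrc1 and Stk17b rose by 0.82 to 0.90, and Anxa2, Mif, Fkbp1a, Hax1 and Sdf4 fell by 0.68 to 0.99. Each of these 12 lost its call without at least 1 single array, Ccnl1 without labelled tumor array 1 alone (adjusted p = 0.0699, limma) and Srsf5 and Mif without any 1 of the 6 (highest adjusted p = 0.162 and 0.158, limma). Averaged over its probe sets, Sdf4 changed sign (0.27, adjusted p = 0.575, limma).

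The same label difference was fitted in the other transductions, which share no arrays with it. Of the 4107 genes called with the Ppp2r2d hairpin, 69.1% were called the same way with LacZ, 75.2% with Egr2, 70.0% with Ptpn2, 74.8% with Arhgap5 and 77.6% with Alk, and these were 61.9%, 64.3%, 32.1%, 52.3% and 32.9% of each one's own calls. Calls of opposite sign numbered 7, 1, 36, 11 and 38. All 6 transductions shared 2141 calls of 1 direction, and 340 genes were called with the Ppp2r2d hairpin alone, which does not show that they differ from the others. The differences themselves were tested against LacZ and against the mean of the other 4 hairpins.

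Against LacZ 143 genes had a different label difference (0.786%, limma), 56 more positive (0.308%) and 87 more negative (0.478%). The LacZ labelled spleen arrays stood apart in quality, with best correlations to another array of 0.974, 0.968 and 0.975 against 0.983 or more in every other array but Ptpn2 labelled tumor array 1 (0.905). Without LacZ labelled spleen array 3 the count was 217, and without Ppp2r2d labelled tumor array 3 it was 75. The part of this spread in the calls was not tested.

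Against the mean of the other 4 hairpins 561 genes differed (3.08%, limma), 211 more positive (1.16%) and 350 more negative (1.92%). The count was 208 without Ppp2r2d labelled tumor array 3, 211 without Ppp2r2d labelled spleen array 1, 858 without Egr2 labelled tumor array 3 and 1684 without Ptpn2 labelled tumor array 2. In 3 arrays of other transductions the low end of the scale was most compressed, with lowest values of -1.45, -1.45 and -1.38, and without them the count was 1396. They were LacZ labelled spleen array 2, which enters only through the shared spread, Egr2 labelled tumor array 2 and Ptpn2 labelled tumor array 3. The 3 Alk labelled tumor arrays, which were kept, had lowest values of -1.88, -2.37 and -2.31, against -4.29 to -3.58 in the Ppp2r2d arrays. The part of this in departures near the floor was not tested. Of the genes called here, 93 were also called against LacZ. Both comparisons use the same 6 Ppp2r2d arrays, so they are not independent.

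**Figure D4:**
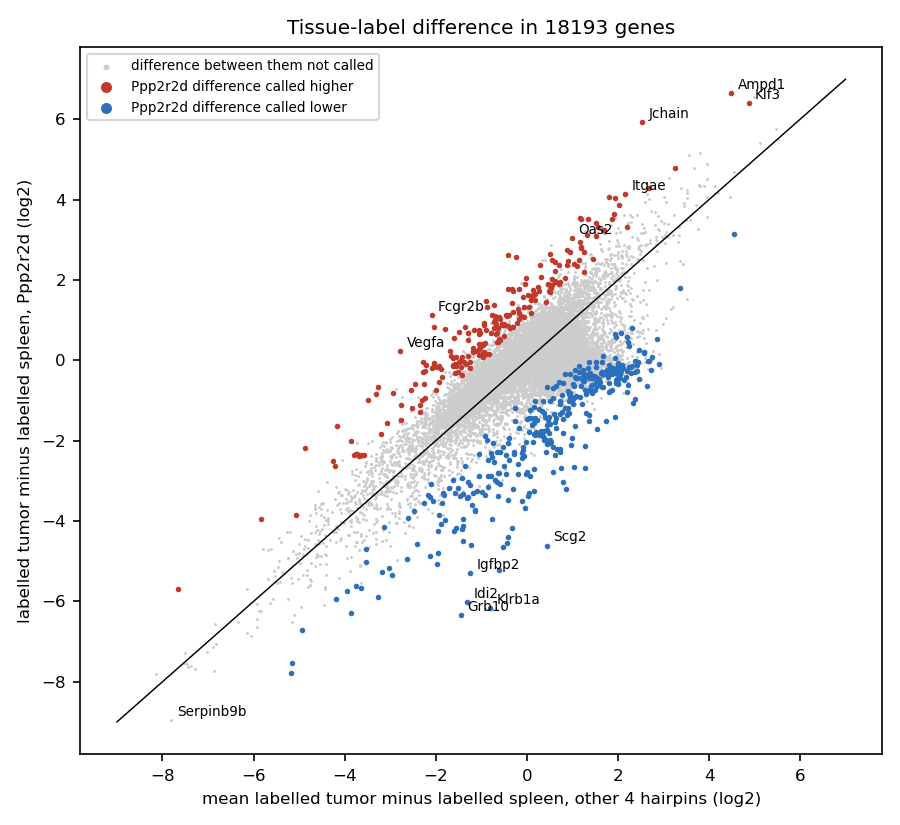
Label difference with the Ppp2r2d hairpin (vertical axis, log2) against the mean label difference of the other 4 hairpins (horizontal axis, log2) for every gene tested, with the line of equality. Coloured points are the 211 genes called higher and the 350 called lower with the Ppp2r2d hairpin. Serpinb9b lies near the line and Grb10, Klrb1a and Scg2 lie far below it.

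A group of genes stood out because the Ppp2r2d labelled spleen arrays were higher than any other labelled spleen array. Grb10, an adaptor that binds insulin and IGF receptors, had -2.33, -1.52 and -1.09 in labelled tumor arrays, against 4.65, 4.74 and 4.70 in labelled spleen arrays. In the other transductions the labelled spleen arrays ran from -1.79 to 3.26. The label difference of Grb10 was 5.28 more negative than that of LacZ (adjusted p = 8.22e-06, limma) and 4.90 more negative than that of the other 4 hairpins (adjusted p = 3.79e-07, limma). Averaged over probe sets, the first was -1.75 and was not called (adjusted p = 0.0941, limma).

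Klrb1a, an NK receptor of the NKR-P1 family, had 3.10, 3.21 and 3.17 in the Ppp2r2d labelled spleen arrays, while the other labelled spleen arrays ran from -2.71 to -0.30. Its label difference was -6.16, and it lay 4.74 below that of LacZ and 5.35 below that of the other 4 (adjusted p = 0.0016 and 5.35e-06, limma). Igfbp2, which binds insulin-like growth factors, had 3.79, 3.63 and 3.69 in the Ppp2r2d labelled spleen arrays, while the others ran from -0.90 to 1.44. Both genes lay below the array median in all labelled tumor arrays of the Ppp2r2d transduction.

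Atp2b2, a calcium pump of the plasma membrane, Scg2, secretogranin II, Twist1, a transcription factor, P3h2, a collagen prolyl hydroxylase, and Ppp2r3a lay above all 15 other labelled spleen arrays too. Their label differences were -5.21, -4.61, -4.64, -4.79 and -3.47, and all 5 were called against LacZ and against the other 4 hairpins. For P3h2 the margin was small, with a lowest Ppp2r2d labelled spleen array of 2.16 against 2.11 in an Arhgap5 array. The Ppp2r3a call against LacZ (adjusted p = 0.0172, limma) was lost without LacZ labelled spleen array 1, Ppp2r2d labelled spleen array 2 or Ppp2r2d labelled tumor array 2 or 3 (highest adjusted p = 0.0729), and when its probe sets were averaged (adjusted p = 0.0899). Idi2, an isoprenoid isomerase, had 2.77, 2.49 and 2.36 in the Ppp2r2d labelled spleen arrays, which overlapped with the other 15 (highest 2.72). For Ppp2r3a the labelled tumor arrays also lay below all 15 others. Itgb8 had a label difference 3.82 more negative than the other 4 hairpins, and Ccr8 2.17 more negative, a call that was lost under quantile normalization (adjusted p = 0.211, limma) and without any 1 of the 6 arrays. Mean Itgb8 levels in labelled tumor and labelled spleen arrays were -3.05 and -3.06 with Egr2, -2.49 and -3.59 with Ptpn2, -3.22 and -3.94 with Arhgap5, and -2.10 and -3.43 with Alk. These are far below the array medians.

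Other named genes were lower in the Ppp2r2d labelled spleen arrays than in any other labelled spleen array. Among them were the T cell markers Cd8a, Cd8b1 and Thy1 given above, and Prf1, Ctla4 and Havcr2, none of which was called against LacZ or the other 4 hairpins. The part of the T cell markers in the values below was not tested. Gzmf had 3.07, 2.52 and 2.79 there, while the lowest of the other 15 was 4.51, so its fall between the labels was 3.89 smaller than in LacZ (adjusted p = 0.000227, limma) and 1.99 smaller than in the other 4 (adjusted p = 0.0103, limma). Without Ppp2r2d labelled tumor array 3 the last call was lost (adjusted p = 0.0507, limma). Serpinb1a had -0.11, -0.05 and 0.02, while the others ran from 2.18 to 5.25, and its label difference was 2.68 more positive than in the other 4. Cish, an inhibitor of cytokine signals that STAT5 induces, had 1.32, 1.76 and 1.95, while the others ran from 2.26 to 5.18. Its label difference of 0.96 was not called in itself. Against LacZ it was 2.69 more positive (adjusted p = 0.00806, limma).

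A further set of named genes was higher in the Ppp2r2d labelled tumor arrays than in any of the 15 other labelled tumor arrays. Oas2 had 3.55, 2.97 and 3.06 there, while the others ran from 1.23 to 2.28, and its rise was 1.84 larger than in LacZ and 2.05 larger than in the other 4 (adjusted p = 0.0211 and 0.000276, limma). The call against LacZ was lost without any 1 of 6 arrays (highest adjusted p = 0.0842, limma). Of the 25 type I interferon genes 6 had a label difference more positive than the other 4 hairpins, among them Mx2 (2.06), Oasl2 (1.75), Ifit1 (1.63) and Rsad2 (1.40), against 1.16% of all genes. Against LacZ 1 of the 25, Oas2, was called, and the list median was 0.40 with the Ppp2r2d hairpin, 0.49 with LacZ and -0.33 over the other 4. Ifit1 averaged 2.30 in Ppp2r2d labelled tumor arrays and 2.79 in LacZ labelled tumor arrays, and neither Ifit1 nor Rsad2 lay above all 15 others there. All 4 named lost these calls without Ppp2r2d labelled spleen array 1 (highest adjusted p over single arrays 0.0517, 0.0691, 0.133 and 0.173, limma). Itgae, Ampd1, Rap1gap2, Nr1d1 and Ahr were also above all 15 others in labelled tumor arrays. Itgae had 3.54, 3.51 and 3.58 there, while the others ran from -0.32 to 3.39.

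The label difference was larger with the Ppp2r2d hairpin than with LacZ for Dtx1 (by 4.11, adjusted p = 0.000879, limma), Cphx3 (3.83), Hey1 (2.91) and Klf3 (1.89). Against the other 4 hairpins Dtx1, Cphx3 and Hey1 were not called (1.56, 1.42 and 1.47, adjusted p = 0.0926, 0.0991 and 0.0864, limma). Klf3 was (1.54, adjusted p = 0.0166, limma), a call lost without Ppp2r2d labelled spleen array 1 or labelled tumor array 3 (highest adjusted p = 0.104). The Dtx1 difference was 6.55 with the Ppp2r2d hairpin, 5.24, 5.10, 5.33 and 4.30 with Egr2, Ptpn2, Arhgap5 and Alk, and 2.44 with LacZ. That of Cphx3 was 4.55 with Ppp2r2d, 4.53 with Ptpn2 and 0.72 with LacZ. The Klf3 call against LacZ was lost without any 1 of 11 of the 12 arrays compared (highest adjusted p = 0.136, limma) and that of Hey1 without LacZ labelled spleen array 1 or Ppp2r2d labelled spleen array 1 or 3 (highest adjusted p = 0.0604, limma). In LacZ labelled spleen arrays Dtx1 had 0.27, 2.37 and -0.20. For Lad1 and Rab7b, at 3.30 and 3.35 above LacZ, the Ppp2r2d arrays themselves overlapped between the labels (differences 0.44 and -0.28), and each call was lost without any 1 of 7 arrays. Jchain, Fcgr2b, Pdlim4, Vegfa, Lonrf3 and Enpp4 had the 6 most positive departures from the other 4 hairpins, at 3.40, 3.21, 3.04, 3.01, 2.87 and 2.82. Fcgr2b is the inhibitory Fc receptor of T and B cells, and Vegfa the vessel growth factor. The call of Jchain was lost without any 1 of 6 arrays (highest adjusted p = 0.103, limma).

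Fcgr2b had 3.98, 4.06 and 4.14 in Ppp2r2d labelled tumor arrays, against 2.82, 2.72 and 3.26 in labelled spleen arrays. In the other transductions its labelled tumor arrays ran from -1.05 to 4.03. Vegfa had 0.58, 1.32 and 1.48 in labelled tumor arrays, against 0.45, 1.07 and 1.18 in labelled spleen arrays, while the other labelled tumor arrays ran from -2.44 to 0.33.

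**Figure D5:**
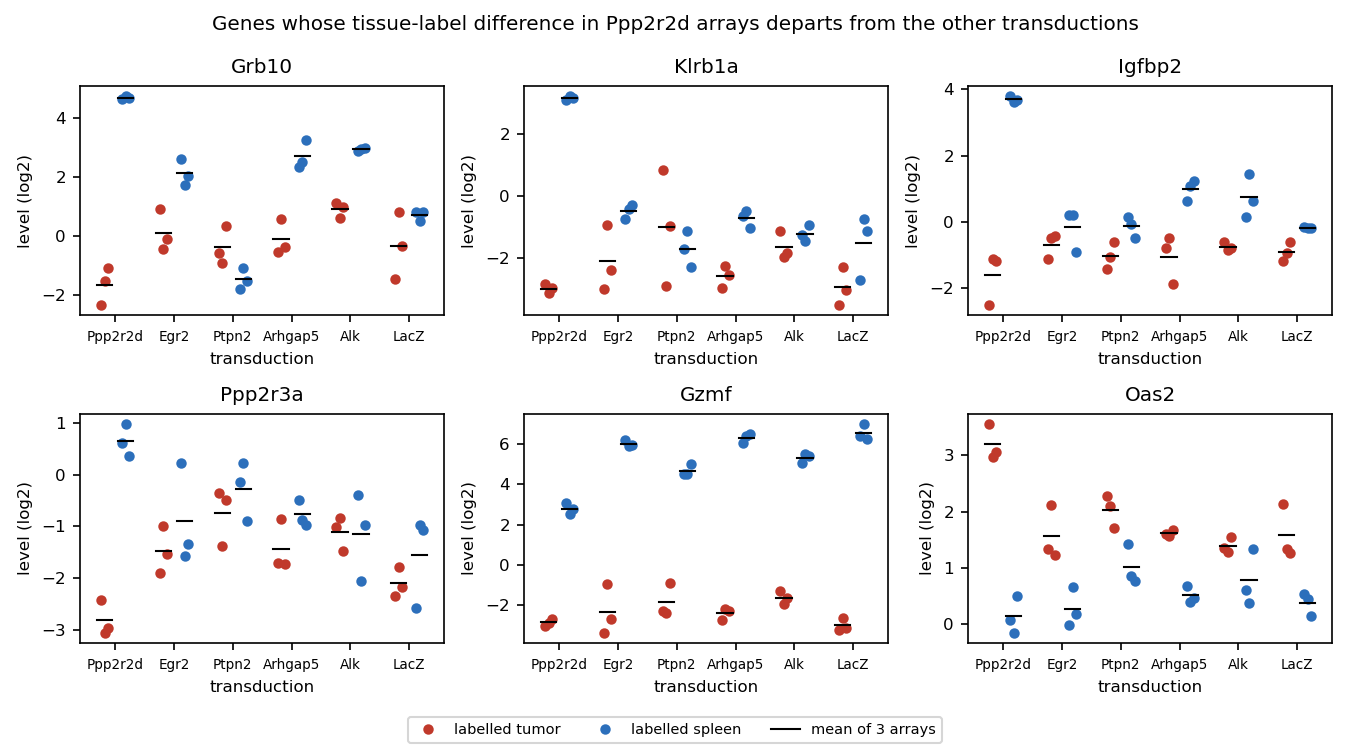
Log2 level of 6 genes in the 12 groups, by transduction on the horizontal axis, with labelled tumor arrays left of labelled spleen arrays. Points are arrays and lines are means of 3. Grb10, Klrb1a, Igfbp2 and Ppp2r3a are highest in the labelled spleen arrays of the Ppp2r2d transduction, Gzmf is lowest there among labelled spleen arrays, and Oas2 is highest in its labelled tumor arrays.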

How the data were processed

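RNA of OT-I CD8 T cells was measured on 36 Affymetrix arrays, 3 for each of 12 groups of transduction and tissue label. The deposited values are log2 expression made by the authors with RMA, per the submitters' processing notes; the sources used here do not give its version, settings or centring. Arrays carry no read depth, and their number limits the precision. Of 45101 probe sets, 34945 had 1 gene symbol in the platform annotation and 932 had several. Each of 18193 genes was represented by its probe set of highest mean.

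limma 3.58.1 in R 4.3.3 was fitted over all 36 arrays with 1 coefficient per group (24 residual degrees of freedom), with Benjamini-Hochberg adjustment over all genes and a threshold of 0.05. The tests were checked on simulated data. Same-numbered arrays were not paired in the main fit, and the labels do not say whether they share a mouse. The correlation of their deviations exceeded 0.1 in 4 of 18 pairs, which cannot settle it. Named were PP2A subunits, the 15 largest rises and falls, up to 8 called genes per list, markers, the 10 called genes of highest level in each direction, and the 6 largest departures each way from the other transductions. Genes left out of these are summarised. Members and lists were chosen with earlier results of these data known. Alternatives were other normalizations, the mean of probe sets, a filter on low values, array weights, only the arrays compared, a replicate block and single arrays left out. Promoter windows came from RefSeq (GRCm38.p6).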

Additional observations from a re-analysis of the deposited data

Results flagged for a closer look

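The genes below had a difference between labelled tumor and labelled spleen arrays that differed between the Ppp2r2d transduction and other transductions, by the limma interaction test (adjusted p under 0.05 over all genes). Values are the Ppp2r2d difference minus the other difference, on the log2 scale.

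Against LacZ, the difference was more positive with the Ppp2r2d hairpin for Dtx1 (4.11), Gzmf (3.89), Cphx3 (3.83), Ampd1 (3.48), Rab7b (3.35), Lad1 (3.30), Il10 (2.98), Hey1 (2.91), Lonrf3 (2.85), Itgae (2.81), Rap1gap2 (2.75), Cish (2.69), Rxra (2.05), Ccl3 (1.90), Klf3 (1.89), Oas2 (1.84) and Anxa2 (1.47). It was more negative for Grb10 (-5.28), Klrb1a (-4.74), Igfbp2 (-4.58), Atp2b2 (-4.30), Idi2 (-3.93), P3h2 (-3.89), Twist1 (-3.85), Scg2 (-3.59), Mamdc2 (-3.28), Slc17a6 (-2.95), Ppp2r3a (-2.92) and Gzmm (-2.69). Such a departure does not show which transduction stands apart. The mean of Gzmm in labelled spleen arrays was 0.14 with LacZ, 3.23 with Ppp2r2d and 3.06 with Arhgap5. That of Mamdc2 was 4.47 with Ppp2r2d and 4.63 with Arhgap5.

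Against the mean of the other 4 hairpins, the difference was more positive for Jchain (3.40), Fcgr2b (3.21), Pdlim4 (3.04), Vegfa (3.01), Lonrf3 (2.87), Enpp4 (2.82), Serpinb1a (2.68), Ifngr2 (2.39), Ampd1 (2.16), Mx2 (2.06), Oas2 (2.05), Gzmf (1.99), Itgae (1.97), Ahr (1.90), Nr1d1 (1.76), Oasl2 (1.75), Cish (1.67), Ccl3 (1.65), Ifit1 (1.63), Klf3 (1.54), Rap1gap2 (1.54), Rxra (1.54), Prdm1 (1.45), Rsad2 (1.40) and Tnfrsf4 (1.23). It was more negative for Klrb1a (-5.35), Scg2 (-5.05), Grb10 (-4.90), Idi2 (-4.70), Atp2b2 (-4.61), Twist1 (-4.11), Igfbp2 (-4.07), Itgb8 (-3.82), Ppp2r3a (-3.05), P3h2 (-2.83), Mamdc2 (-2.61), Slc17a6 (-2.38), Ccr8 (-2.17) and Serpinc1 (-2.01). Of the named genes, 13 of 29 calls against LacZ and 17 of 39 against the other 4 were lost when some single array was left out.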

How the results depend on the processing

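Between the labels, 4107 genes were called. Cyclic loess gave 6213 (2836 up), only the arrays compared 6782 (2590 up, 4192 down), array weights 7945 (3128 up, 4817 down) and quantile normalization 3083 up. Leaving out single arrays gave 3357 to 3432 genes, 1110 to 1251 up and 2121 to 2322 down. Against LacZ (143), cyclic loess gave 478 (158 up, 320 down), quantile normalization 393 (164 up, 229 down), only the arrays compared 63 (23 up, 40 down), array weights 1864 (958 up, 906 down), the filter on low values 87 up, and leaving out the 3 arrays of compressed low end, chosen after seeing the data, 252 (184 down). Single arrays left out gave 75 to 217, 25 to 138 up and 46 to 93 down. Against the other 4 hairpins (561), only the arrays compared gave 1409 (404 up, 1005 down), array weights 6948 (2793 up, 4155 down), without the 3 arrays 1396 (514 up, 882 down), cyclic loess 350 up and quantile normalization 379 up. Single arrays left out gave 208 to 1684, 87 to 394 up and 114 to 1290 down. The Ppp2r2d transcript difference ran from 0.23 to 0.51 with single arrays left out. The cause of these changes was not tested.

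The labels do not say whether same-numbered arrays are paired, and the main fit did not pair them. A replicate block within transduction gave 4008 calls between the labels, 117 against LacZ and 481 against the other 4 hairpins. Averaged over its probe sets, Sdf4 reversed (0.27, adjusted p = 0.575, limma). Of 207 named genes called between the labels, 179 kept the call without every single array in turn, and 173 under every setting run. With no detection calls, differences from levels near the floor are the least certain.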
